A study of Mus musculus with 4 samples.

Results

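Lag3, Pdcd1, Tigit, Havcr2, Cd160 and Cd96 encode inhibitory receptors of T cells, and their RNA was followed over 4 Affymetrix arrays of mouse gut T cells. The 6 genes were taken by name from the 22180 genes of the value table, and all 6 were measured, each by 1 probe set that carries its symbol alone. Values are log2 levels, so a difference of 1 is a 2-fold difference. A probe set's brightness also depends on its own sequence, so a level was set only against the level of the same gene on another array.

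Each group was 1 array. The first held intraepithelial lymphocytes (IEL, the T cells that sit between the epithelial cells of the gut wall) of the small intestine of untreated mice, and the second held IEL of the colon of untreated mice. The third held colon IEL of mice that drank vancomycin, ampicillin, neomycin and metronidazole for 7 days and then had 7 days to regain bacteria. The labels describe that recolonization in one place as co-housing and in another as dirty bedding from untreated littermates, and no array of mice after antibiotics alone was analysed here. The fourth array is labelled T cells of the colon lamina propria, the connective tissue under the epithelium. All mice were C57Bl/6 animals aged 8 to 10 weeks, without any engineered allele. Cells of 10 mice (5 males and 5 females) were pooled, with the labels unclear as to whether the 10 served 1 array or all. T cells were enriched by magnetic negative selection with an anti-EpCAM antibody added against epithelial cells. With 1 array a group, no difference below has a replicate check, an error or a test.

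Many inhibitory receptors are switched on in T cells that have met antigen. Inhibitory receptors damp signals from the antigen receptor when they bind ligands on neighbouring cells. LAG-3 binds MHC class II, PD-1 (Pdcd1) binds PD-L1 and PD-L2, TIGIT and CD96 bind the poliovirus receptor and related nectins in competition with the activating receptor CD226, TIM-3 (Havcr2) binds galectin-9 and CEACAM1 among others, and CD160 binds the TNF receptor family member HVEM. IEL live beside the gut contents as antigen-experienced cells, and many of them carry such receptors without losing their killing function.

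The arrays differed in spread and in the cells they held. Over all genes the log2 level had an SD of 1.67 for small intestinal IEL, 1.23 for colon IEL, 1.35 for recolonized IEL and 1.81 for the array labelled LP. The array labelled LP went against its label: its T cell markers had a median level of 2.51, against 5.57 to 6.65 on the 3 IEL arrays, while its epithelial markers had a median of 8.85, against 4.40 to 7.43. Cd3e, which encodes the CD3 epsilon chain, stood at 9.49, 9.17 and 9.43 in small intestinal, colon and recolonized IEL but at 3.72 there. The IEL arrays differed too: the B cell list had medians of 6.24, 3.16 and 2.62, and the CD4 and naive T cell list of 3.85, 5.88 and 6.27, in the same order. In colon IEL the red cell genes stood apart, at a median of 8.75 against 3.37 to 3.86 on the other 3 arrays, and stromal genes had medians of 3.44, 5.40, 4.94 and 2.80 over the small intestinal, colon, recolonized and LP-labelled arrays; the part of these cells in the receptor values was not tested. In mixed cells, fewer cells of a type and less RNA per cell cannot be told apart. A level was called above background when it was over the 95th percentile of 1444 odorant, taste and pheromone receptor genes on its array, which lay at 2.04, 2.39, 2.28 and 1.91 in the order small intestinal, colon, recolonized, LP-labelled.

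Lag3 and Tigit were brightest on the small intestinal IEL array, Pdcd1 was above background on the colon IEL arrays only, Cd160 was at much the same level on all 3 IEL arrays, Cd96 was bright on all 3, and Havcr2 stayed close to background on every array. Of the 6 genes, 5 were above background on the small intestinal array, 4 on each colon IEL array and 3 on the array labelled LP. These counts hang on the threshold: over the 99th percentile of the same receptor genes stood 4, 2, 3 and 0 of the 6 genes, so Lag3 on both colon arrays, Pdcd1 on the untreated colon array, Havcr2 in small intestinal IEL and every receptor on the array labelled LP lay no higher than the brightest of these genes, which T cells are not known for.

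**Figure D1:**
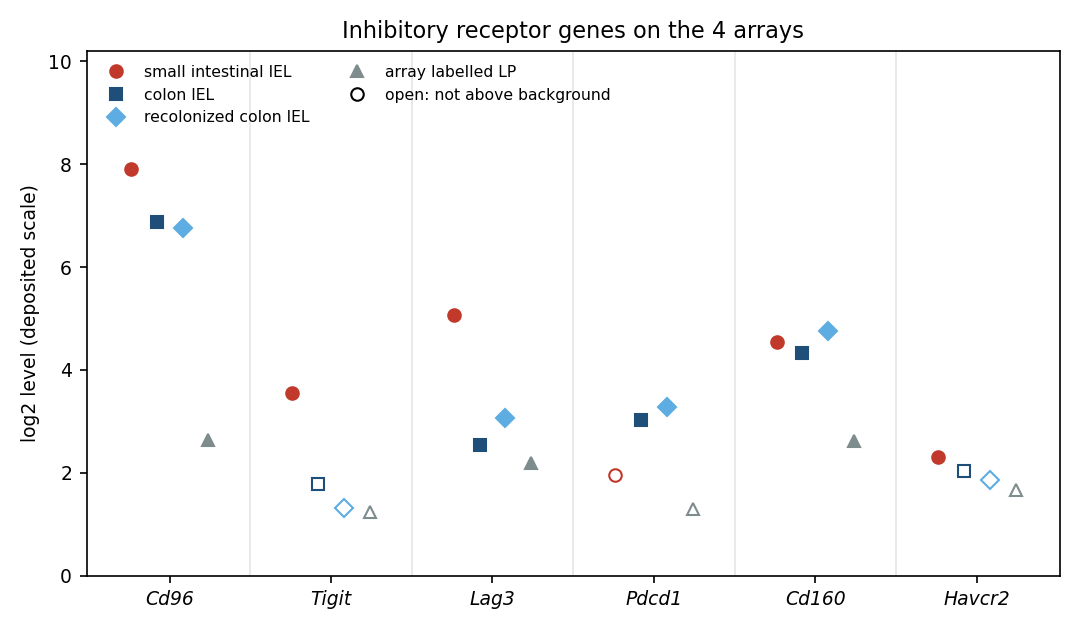
Log2 level of each of the 6 inhibitory receptor genes on the 4 arrays, 1 point per array, with open symbols for levels not above background. Lag3 and Tigit stand highest on the small intestinal IEL array at 5.07 and 3.56, Pdcd1 on the colon IEL arrays at 3.03 and 3.27, and Cd96 spans 6.76 to 7.90 over the IEL arrays, with 2.63 for the array labelled LP.

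Promoter windows of these genes are shown because the 6 genes had different patterns over the arrays. RefSeq's table for the mouse assembly GRCm38.p6 matched 5 of the 6 genes by symbol (all but Lag3), and the sequences are the 250 bases before the annotated transcript start, read in the direction of the gene, 5′ to 3′. Capitals mark a match to the RUNX core motif, TGTGGT or its reverse complement. RUNX proteins, among them Runx3 of CD8 T cells, bind sites of this kind. The windows lie at chr1:94052554-94052803 on the minus strand for Pdcd1, chr11:46454681-46454930 on the plus strand for Havcr2, chr3:96829352-96829601 on the minus strand for Cd160 (the outer of its annotated starts) and chr16:46120249-46120498 on the minus strand for Cd96.
Pdcd1: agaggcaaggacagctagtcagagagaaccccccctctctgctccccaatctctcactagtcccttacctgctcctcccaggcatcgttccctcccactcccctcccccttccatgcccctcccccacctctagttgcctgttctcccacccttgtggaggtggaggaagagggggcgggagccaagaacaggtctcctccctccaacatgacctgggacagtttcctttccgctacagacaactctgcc
Havcr2: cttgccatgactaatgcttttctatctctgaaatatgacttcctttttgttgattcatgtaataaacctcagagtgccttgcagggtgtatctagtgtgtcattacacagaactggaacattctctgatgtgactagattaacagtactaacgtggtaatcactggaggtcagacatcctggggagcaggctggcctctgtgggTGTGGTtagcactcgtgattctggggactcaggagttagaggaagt
Cd160: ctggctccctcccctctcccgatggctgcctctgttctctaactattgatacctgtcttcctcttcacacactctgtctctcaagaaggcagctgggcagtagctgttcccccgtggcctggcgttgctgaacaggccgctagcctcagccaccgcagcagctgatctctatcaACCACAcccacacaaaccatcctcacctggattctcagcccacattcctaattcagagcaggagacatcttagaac
Cd96: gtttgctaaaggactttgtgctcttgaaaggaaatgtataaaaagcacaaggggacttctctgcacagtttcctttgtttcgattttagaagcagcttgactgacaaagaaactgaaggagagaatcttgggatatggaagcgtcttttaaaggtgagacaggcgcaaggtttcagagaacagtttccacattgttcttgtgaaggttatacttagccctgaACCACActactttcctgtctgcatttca
The Tigit window is not printed, because another annotated start of Tigit lies farther upstream.

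The motifs were added after the data were seen. The RUNX motif was found in 5 of the 6 windows (4 of the 5 genes, all but Pdcd1), with the unprinted Tigit window counted. The same motif was in 14.0% of all 32851 RefSeq windows of the same length. Its first base lay 46 bases before the start in Havcr2, 76 in Cd160, 28 in Cd96 and 140 in Tigit, and the inner Cd160 window held a match at 101. Another 6 motifs were searched on both strands. The ETS motif GGAAGT (in 19.7% of all windows) was found at 213 and at 6 bases before the Havcr2 start. The inner Cd160 window held it as well, 59 bases before its start. The AP-1 motif TGANTCA (6.75% of windows) lay 200 bases before the Havcr2 start, and the NFAT motif TGGAAA (18.6%) 67 bases before the Cd96 start. The inner Cd160 window held the TCF and LEF motif CTTTGA (13.8%) at 232 and 92 bases and the T-box motif GGTGTGA (3.33%) at 189. The AHR motif GCGTG (28.2%) matched none of these windows, and none of the 7 motifs matched the Pdcd1 window. A match describes the letters and is no evidence of binding, and the RUNX match is shared by genes with unlike patterns, such as Tigit and Cd96.

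Small intestinal and colon IEL of untreated mice were compared to ask how the receptors differ along the gut. A gene was counted when its level on the brighter of the arrays reached that array's median over all genes (2.24, 2.41, 2.39 and 2.18 in the order above, the level floor), and called higher or lower from 2-fold. All 6 genes passed the floor in this pair. Pdcd1 was called higher in the colon, against 5.98% of the 12551 genes above the floor, but its small intestinal level was not above background, and against that background level it was at least 1.99-fold higher, short of 2-fold. Lag3, Tigit and Cd96 were called lower, against 24.4% of those genes, and the other two lay within 2-fold. The median difference of the 6 genes was −0.66, beside −0.30 over all genes above the floor. Differences of 56 ribosomal protein genes, which share one function in every cell, had an SD of 0.56 in this pair, and the 10 reference genes had a median of −1.03.

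LAG-3 is the receptor among the 6 that binds MHC class II. Lag3 was at 5.07 in small intestinal IEL, 2.55 in colon IEL, 3.07 in recolonized colon IEL and 2.19 on the array labelled LP. The small intestinal array stood alone at the top, with the other 3 within 0.88 of each other. Lag3 in colon IEL was near that array's background level of 2.39. It was under the 99th percentile of the odorant, taste and pheromone receptor genes there, 3.29. The colon minus small intestine difference was −2.52, which is 5.74-fold lower in the colon. It was between −2.25 and −1.95 under the 5 other scalings of the arrays (quantile normalization over 4 and over 3 arrays, centring, lowess, and relative to the CD3 chains), and 2-fold or more in all 5. The recolonized colon array gave −2.00 against the same small intestinal array, so both colon arrays were below it. The CD8 and natural IEL list had a median difference of −1.29 in the same pair. Of its 8 genes, 0 were called higher and 4 lower, against 5.98% and 24.4% over all genes above the floor. Its differences were negative for 6 genes and positive for 2, Cd8b1 at 0.57 and Xcl1 at 0.32. The part of this list in the Lag3 and Tigit differences was not tested.

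TIGIT binds the poliovirus receptor and carries an inhibitory motif in its tail. Tigit was at 3.56 in small intestinal IEL and not above background elsewhere, at 1.79 in colon IEL, 1.31 in recolonized IEL and 1.23 on the array labelled LP. Only the small intestinal array measured it. The colon minus small intestine difference was −1.77, and against the colon array's background level the gene was at least 2.25-fold lower in the colon. The 5 other scalings moved the difference between −1.88 and −1.31, read against a colon level that was not above background. The recolonized array gave −2.25, at least 2.42-fold lower.

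CD96, the other receptor for the poliovirus receptor among the 6, was at 7.90 in small intestinal IEL, 6.87 in colon IEL, 6.76 in recolonized IEL and 2.63 on the array labelled LP. The 3 IEL arrays lay close together, well above the fourth. Its colon minus small intestine difference of −1.04 (2.05-fold lower) was close to the reference genes' median, and it did not keep its call: it was −0.71 relative to the CD3 chains and 0.04 after quantile normalization, with 2-fold reached under 0 of the 5 other scalings. CD226, the activating receptor that shares their ligand, had Cd226 levels of 3.84, 3.18 and 3.91 in small intestinal, colon and recolonized IEL; it was chosen for its shared ligand after its values were seen.

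PD-1 went the other way. Pdcd1 was at 1.95 in small intestinal IEL and at 1.30 on the array labelled LP, neither above background, and at 3.03 in colon IEL and 3.27 in recolonized IEL, both above it. The 2 colon IEL arrays thus stood above the other two. The colon minus small intestine difference was 1.08, with the bound of 1.99-fold given above, and the recolonized array gave 1.32, at least 2.35-fold. The other scalings moved the difference between 0.89 and 1.54, read against the same small intestinal level that was not above background. The CD4 and naive T cell list moved with Pdcd1, with a median difference of 1.96. All 7 of its 7 genes that passed the floor were called higher in the colon, against 5.98% over all genes above the floor. Cd4 was at 5.91 in small intestinal and 8.09 in colon IEL, and the part of these cells in the Pdcd1 difference was not tested.

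CD160, a lipid-anchored receptor of IEL and natural killer cells, differed little. Cd160 was at 4.55 in small intestinal IEL, 4.33 in colon IEL, 4.76 in recolonized IEL and 2.61 on the array labelled LP, with the 3 IEL arrays closer together than the ribosomal protein genes' SD. The colon minus small intestine difference was −0.21, and the 5 other scalings put it between 0.11 and 0.78, so it has no settled sign. In the same pair the CD8 and natural IEL list stood at the median of −1.29 given above.

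TIM-3 was hardly measured. Havcr2 was at 2.31 in small intestinal IEL, the only array where it was above background, and at 2.03, 1.85 and 1.67 on the colon, recolonized and LP-labelled arrays. No fold is given for it, since its small intestinal level was below the colon array's background level of 2.39. The macrophage and dendritic cell list, whose cells also use TIM-3, had medians of 2.96, 2.50, 2.31 and 1.96 over the small intestinal, colon, recolonized and LP-labelled arrays, with 8, 6, 7 and 7 of its 12 genes above background. Havcr2 has no order among the 3 arrays where it was not above background, and the part of these cells in its small intestinal level was not tested.

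**Figure D2:**
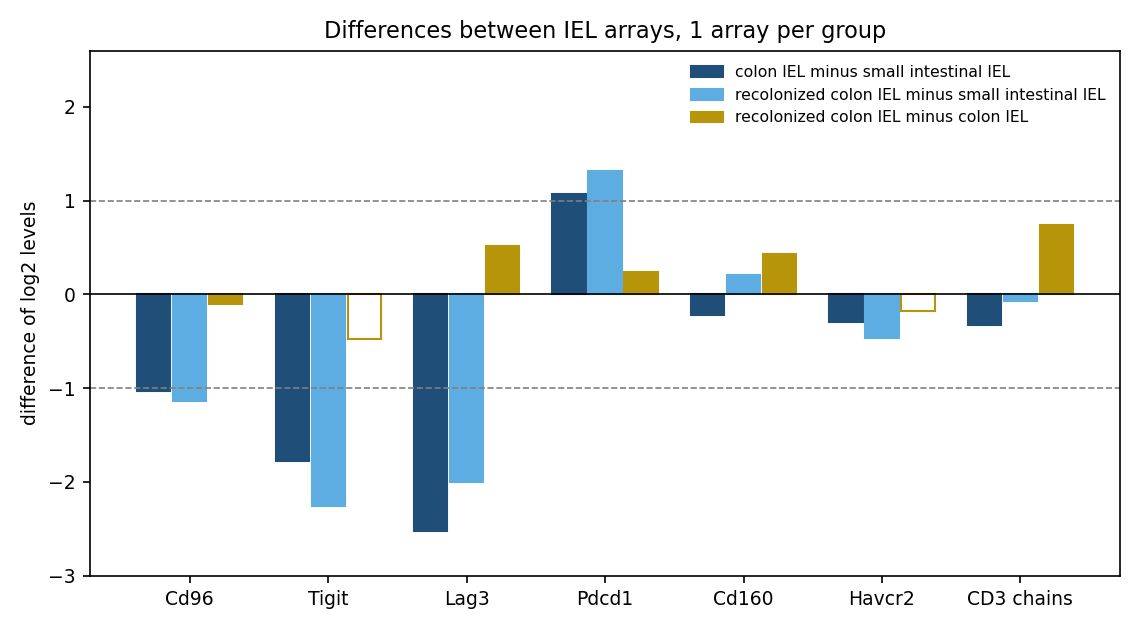
Log2 difference between IEL arrays for each receptor gene, with the median of the CD3 chains beside them. The 3 pairs are colon minus small intestinal, recolonized colon minus small intestinal, and recolonized minus untreated colon. Open bars mark receptor genes with neither level above background. The bars of Lag3 at −2.52 and Tigit at −1.77 point below 0 in the first pair and that of Pdcd1 at 1.08 above it. In the second pair these genes stand at −2.00, −2.25 and 1.32, and all bars of the third pair lie within 2-fold.

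Recolonized and untreated colon IEL were compared for the effect of losing and regaining gut bacteria. None of the 6 genes differed 2-fold between the 2 colon IEL arrays. Of the 4 above the floor, 0 were higher, against 6.04% of the 12443 genes tested, and 0 were lower, against 3.06%. Lag3 was 0.52 higher on the recolonized array, Cd160 0.43 higher and Pdcd1 0.24 higher, and the Cd96 difference was −0.10. Each of these was under the SD of 57 ribosomal protein genes, 0.60. The CD3 chains had a median difference of 0.74 in this pair, so relative to them all 4 of these differences were below 0. Tigit and Havcr2 were under background on both arrays, and their differences of −0.48 and −0.17 give no direction. The median of the 6 genes was 0.07, and it took the opposite sign under each of the 5 other scalings.

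Colon IEL and the array labelled LP were compared, by the labels, as epithelial against deeper T cells, and the low T cell markers of the latter stand beside every value. Cd96 was 4.24 higher in colon IEL (18.9-fold), Cd160 was 1.72 higher (3.31-fold), and Pdcd1 was 1.73 higher, at least 2.18-fold. Lag3 was 0.36 higher. Thus 3 of the 4 genes above the floor were called higher, against 10.5% of 12788 genes, and 0 were called lower, against 34.7%. In the same pair the CD3 chains had a median difference of 5.42, larger than that of any of the 6 receptors, and relative to the CD3 chains the Cd96 difference became −1.18, that of Pdcd1 −3.69 and that of Cd160 −3.69. Tigit and Havcr2 were under background on both arrays. Cell makeup and tissue layer cannot be told apart here.

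**Figure D3:**
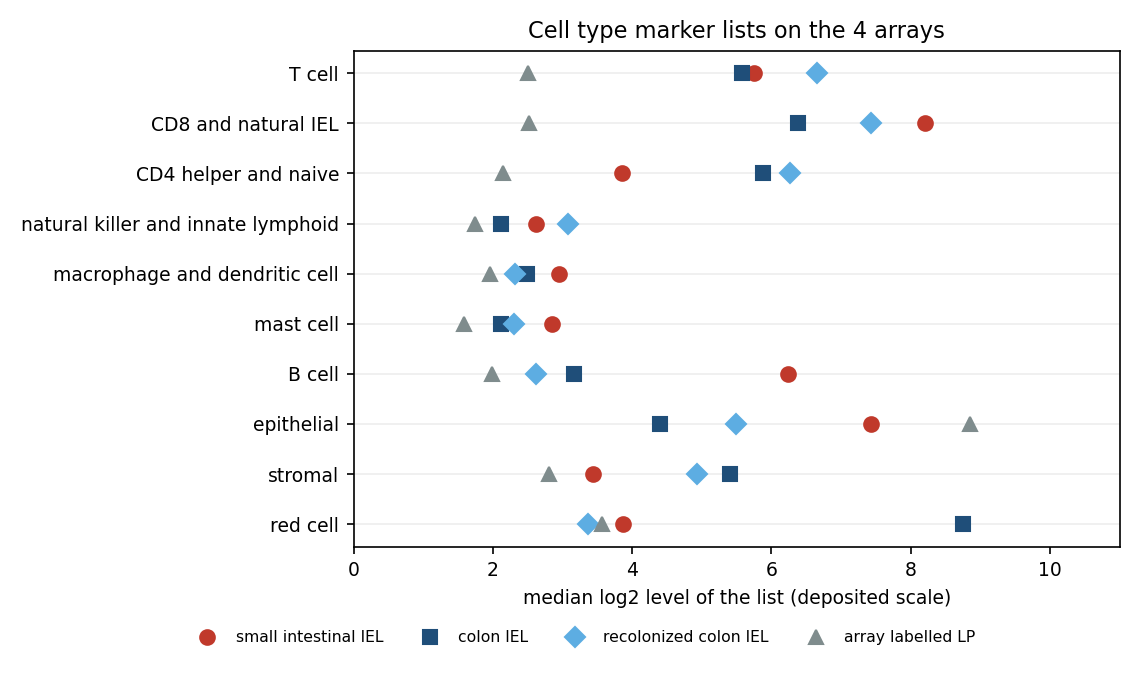
Median log2 level of marker lists of T cells and of other cell types on the 4 arrays, 1 point per list and array. The array labelled LP has the lowest T cell median at 2.51 and the highest epithelial median at 8.85, and the B cell median is 6.24 in small intestinal IEL against 3.16 in colon IEL.

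The ligands of the receptors were mostly measured, 15 of the 16 listed, in cells that include whatever other cells came through the enrichment. For LAG-3, the MHC class II genes were lower in the colon: H2-Aa was at 8.12 in small intestinal IEL, 5.90 in colon IEL, 4.72 in recolonized IEL and 3.90 on the array labelled LP. H2-Ab1 was at 9.30, 7.62, 4.31 and 5.13 in that order, and H2-Eb1 at 7.51, 6.21, 5.38 and 3.83. Each was thus highest where Lag3 was highest. On the recolonized array H2-Ab1 was 9.92-fold lower than on the untreated colon array and H2-Aa 2.26-fold lower, while Lag3 differed by 0.52. The B cell list, whose cells carry MHC class II, was also highest in the small intestine and lowest of the IEL arrays after recolonization, and its part in these levels was not tested. The proposed LAG-3 ligands Fgl1 and Clec4g were not above background on any array, and Lgals3 (galectin-3) was highest, at 6.72, on the array labelled LP.

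PD-L1 and PD-L2 differed little among the IEL arrays. Cd274, which encodes PD-L1, was at 3.89, 3.56 and 3.61 in small intestinal, colon and recolonized IEL and at 2.36 on the array labelled LP. Pdcd1lg2, for PD-L2, was at 2.24, 2.70, 2.12 and 2.04, with the recolonized level not above background. Neither followed the Pdcd1 pattern, in which the small intestinal array was the dim one among the IEL.

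The ligands of TIGIT and CD96 were highest on the array rich in epithelial markers. Pvr, the poliovirus receptor itself, was at 2.77, 2.66 and 2.57 in small intestinal, colon and recolonized IEL and at 3.85 on the array labelled LP. Nectin2 was at 4.01, 4.07, 3.55 and 5.36 in that order. Nectin3 was at 3.50 in small intestinal IEL, 1.89 in colon IEL (not above background), 2.50 in recolonized IEL and 4.72 on the array labelled LP. Nectin3 was the only one of these 3 genes called lower in colon than in small intestinal IEL, at least 2.15-fold lower against the colon array's background level.

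For TIM-3, Ceacam1 was at 9.06, 8.60, 9.77 and 11.47 over the small intestinal, colon, recolonized and LP-labelled arrays, and was 1.17 higher on the recolonized than on the colon array. Lgals9 (galectin-9) was at 8.96, 7.13, 7.78 and 8.20, and Hmgb1, a nuclear protein that TIM-3 binds when it is released, was at 8.15, 7.42, 7.80 and 8.11. The epithelial list was lowest on the colon IEL array, at 4.40, as were Ceacam1, Lgals9 and Hmgb1, and its part was not tested. Tnfrsf14, which encodes HVEM, the partner of CD160, was level, at 3.84, 4.02, 3.71 and 3.86. Over the whole list, 0 of 13 ligands above the floor were called higher in colon than in small intestinal IEL and 5 lower (H2-Aa, H2-Ab1, H2-Eb1, Nectin3 and Lgals9), against 5.98% and 24.4% over all genes. H2-Aa and Nectin3 were called lower under all 5 other scalings, and H2-Eb1 under 0 of 5. The list's median was −0.46, and it turned positive under quantile normalization, centring and lowess.

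**Figure D4:**
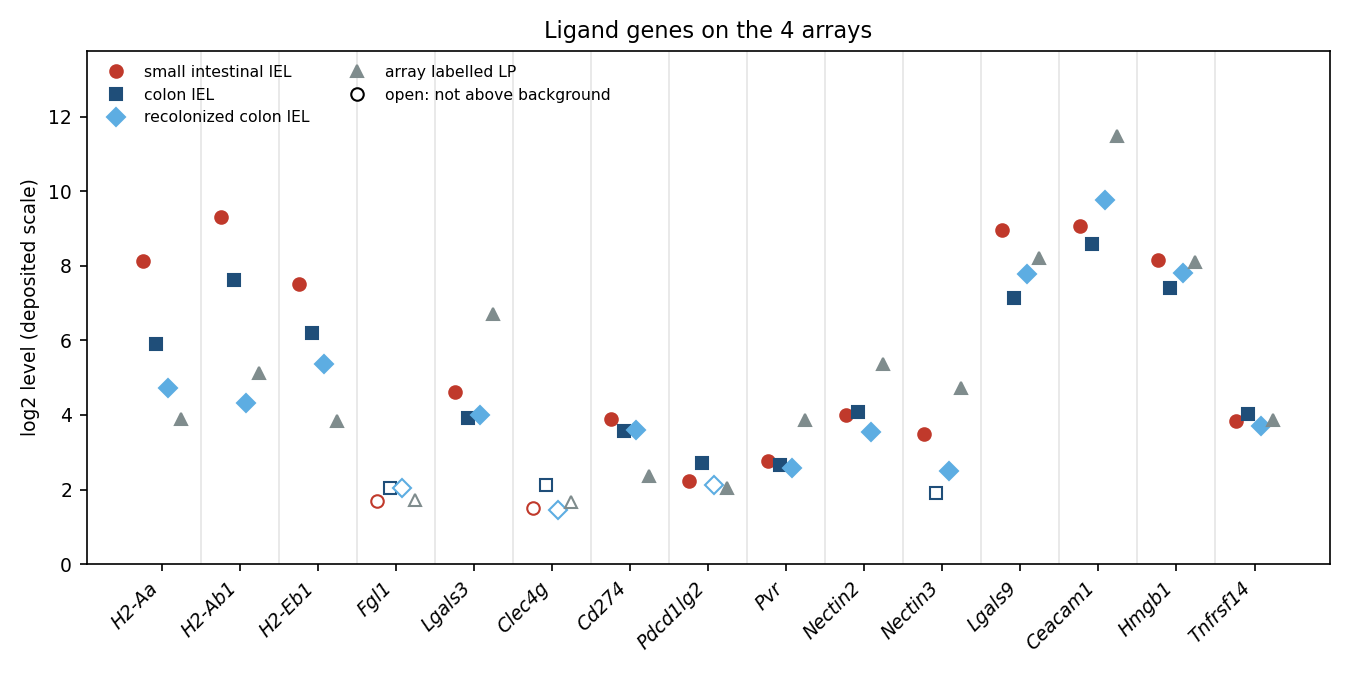
Log2 levels of the ligand genes on the 4 arrays, grouped by receptor, with open symbols for levels not above background. H2-Aa, H2-Ab1 and H2-Eb1 stand highest on the small intestinal IEL array, Cd274 lies between 3.56 and 3.89 on the IEL arrays, and Pvr, Nectin2, Nectin3 and Ceacam1 are highest on the array labelled LP.

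Among 14 other inhibitory receptors, 1 was called higher in colon than in small intestinal IEL and 7 lower, of 11 above the floor, against 5.98% and 24.4% over all genes, with a median difference of −0.81. Cd5, a damper of antigen receptor signals and also a member of the CD4 and naive list, was the one called higher, at 4.77 in small intestinal, 5.86 in colon and 6.02 in recolonized IEL. Klrd1, the CD94 chain that pairs with NKG2 receptors, was at 7.91, 6.35 and 6.58, and Cd244a, the receptor 2B4, at 6.80, 4.84 and 4.80. Vsir, which encodes VISTA, was at 4.44, 5.14 and 5.40. Of genes picked after their values were seen, Cd200r1 (4.90, 3.10 and 2.26), Cd101 (3.89, 2.26 and 2.64) and Lair1 (3.10, 1.63 and 2.51) were the only ones of the 7 still called lower under all 5 other scalings. The colon levels of Cd101 and Lair1 were not above background, so that Cd101 was at least 2.83-fold lower there but Lair1 only at least 1.64-fold, short of 2-fold. Ctla4, also picked after its values were seen, was near background throughout, at 2.25, 2.21 and 2.32.

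Between the 2 colon IEL arrays, 1 of 11 of these receptors was called higher after recolonization and 0 lower, near the 6.04% and 3.06% over all genes, with a median of 0.20. That gene, Klrg1, chosen after its values were seen, marks effector and natural killer cells; it was at 2.01 in colon IEL, not above background, and at 3.45 in recolonized IEL, and relative to the CD3 chains it was not called. The NK and innate lymphoid list had a median gene difference of 0.31 between those arrays. Of its 4 genes above the floor, 1 was called higher, against 6.04% over all genes. The called one was Ncr1, the natural killer receptor NKp46, at 2.24 (not above background) and 3.76. The part of these cells was not tested.

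**Figure D5:**
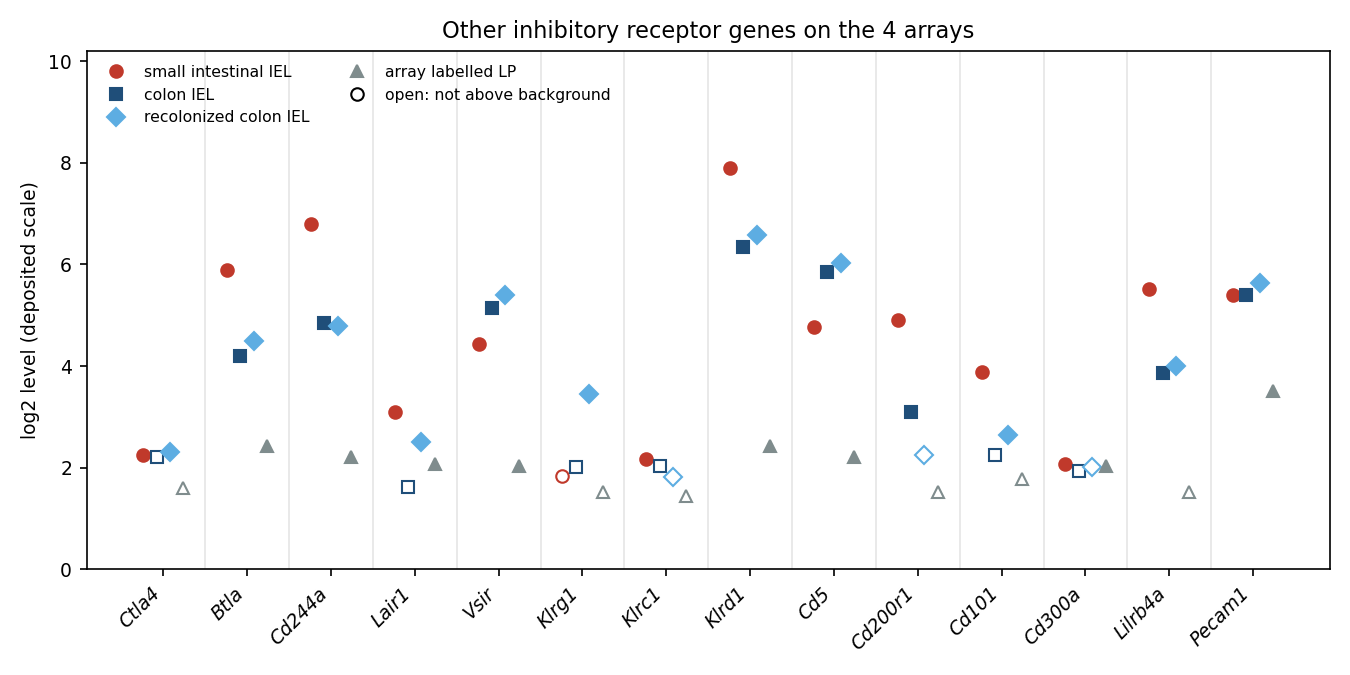
Log2 levels of the 14 other inhibitory receptors on the 4 arrays, with open symbols for levels not above background. Klrd1 and Cd244a are highest in small intestinal IEL at 7.91 and 6.80, Cd5 and Vsir in the colon IEL arrays, and Klrg1 is above background only in recolonized IEL at 3.45.

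Activating co-receptors were measured for all 10 genes of the list. In colon against small intestinal IEL 8 were above the floor, 1 was called higher and 1 lower (5.98% and 24.4% over all genes), and the median was 0.25. Cd27, a costimulatory TNF receptor of naive and memory cells, was the one called higher, at 5.34 in small intestinal, 6.40 in colon and 6.76 in recolonized IEL. Tnfrsf9 (4-1BB), a receptor of recently activated cells, was the one called lower, at 5.01, 3.40 and 3.43. Cd2, an adhesion receptor, was at 3.77, 4.70 and 5.67, and Tnfrsf18 (GITR) at 3.64, 4.29 and 4.69, both short of 2-fold between the untreated arrays. Recolonized against untreated colon IEL gave 0 called of 10, beside 6.04% higher and 3.06% lower over all genes above the floor.

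Transcription factors that act in inhibitory receptor programmes were measured for 18 of 19 genes. In colon against small intestinal IEL 0 of 17 were called higher and 5 lower, near the 5.98% and 24.4% over all genes, with a median of −0.71 that was 0.06 after quantile normalization over the 4 arrays. Maf, a factor tied to inhibitory receptor and IL-10 expression in T cells, was at 5.53, 2.80, 3.19 and 2.69 over the small intestinal, colon, recolonized and LP-labelled arrays, an order shared with Lag3. Its difference of −2.73 stayed 2-fold or more under all 5 other scalings, but its other, dimmer probe set gave −0.81. Id2 was at 7.24, 5.76 and 6.67 and Id3, its relative, at 3.46, 2.65 and 3.56 in small intestinal, colon and recolonized IEL. Runx3, needed for CD8 T cells and IEL, was at 4.67, 4.91 and 5.31, with no 2-fold difference. The recolonized and colon arrays had 0 called of 18, beside 6.04% higher and 3.06% lower over all genes above the floor.

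Of 14 signalling proteins that act below these receptors, 0 were called higher in colon than in small intestinal IEL and 4 lower, near the 5.98% and 24.4% over all genes, with a median of −0.30 that was positive under all 5 other scalings. Ptpn11, which encodes the phosphatase SHP-2 recruited by PD-1, was at 4.84, 2.66 and 3.30 in small intestinal, colon and recolonized IEL and at 4.48 on the array labelled LP. Its difference of −2.19 kept its direction and its 2-fold size under the 5 other scalings, opposite in sign to that of Pdcd1. Fyn, a kinase of antigen receptor signalling, was at 4.82, 4.59 and 4.68, Sh2d2a, a T cell adaptor, at 6.55, 5.84 and 5.89, and Arrb2, an arrestin that binds the TIGIT tail, at 4.38, 4.27 and 4.33. None of these 3 differed 2-fold among the IEL arrays. Recolonized against untreated colon IEL gave 0 called of 14, beside 6.04% higher and 3.06% lower over all genes above the floor.

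The genes most like each receptor were found as those with the smallest root mean square distance between levels centred on their mean over the 4 arrays, among 12583 genes that reached the floor. With 4 points, many genes lie close to any pattern. Nearest to Lag3 were Ctrl (distance 0.04), Cck (0.08) and Apol9b (0.08), and nearest to Pdcd1 were Cd209a (0.08), Fgf17 (0.08) and Fxyd1 (0.10). Tigit had Erich4 (0.10), Fbp1 (0.11) and Mpeg1 (0.13) beside it, Havcr2 had Srpk2 (0.02), Mcam (0.03) and Oas2 (0.04), and Cd160 had Prex1 (0.03), Pecam1 (0.08) and Maml2 (0.08). Cd96 had the most distant neighbours, Klrd1 (0.19), Ptpn22 (0.25) and Cd37 (0.30), all of which lymphocytes use. Levels were centred but not scaled, so a distance also depends on a gene's range. Cd96 ranged from 2.63 to 7.90 over the arrays and Havcr2 from 1.67 to 2.31, so their distances cannot be ranked against each other. Among the 6 receptors themselves, Lag3 and Tigit were closest to each other, at 0.40, followed by Pdcd1 and Cd160 at 0.54. Many other genes lay closer: Tigit ranked 77 in distance from Lag3, and Lag3 ranked 120 from Tigit. Cd160 ranked 1224 from Pdcd1, and Pdcd1 ranked 482 from Cd160. Tigit and Pdcd1 enter these distances with levels not above background.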

How the data were processed

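The deposited values are log2 levels per probe set, for which the submitters' processing notes name Affymetrix Expression Console. The software version, summarization, normalization and genome build were not given in the sources used here. Of 41345 probe sets, 23521 list 1 gene symbol, 1814 list several and 16010 are absent from the gene table that was used. A gene was taken as its brightest single-symbol probe set by the mean over the 4 arrays, which gave 22180 genes. Gene IDs of 23328 probe sets matched RefSeq's GRCm38.p6 table, and 0 symbols were updated.

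Differences between arrays were taken for the same gene. Genes at or above the 50th percentile on the brighter array were counted, at a 2-fold threshold. Background was the 95th percentile of 1444 chemoreceptor genes, since no detection calls were used. Where 1 level was under background, the fold is a bound against the higher of the array's background level and the gene's own level. With 1 array a group no test was run, and the number of arrays limits the precision.

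The 6 receptors, the gene lists and the choices were made with earlier results of these data known. Genes named are the 6 receptors, their ligands, the 4 genes of each other list that differed most in any of the 3 planned comparisons, the 3 nearest in pattern, the flanking RefSeq genes, and others said to be chosen after their values were seen. Alternatives were other floors, thresholds, background levels and scalings and the recolonized in place of the colon array; quantile normalization over the 3 IEL arrays and the remaining pairs of arrays were added after seeing the data, as were the motifs. Some listed genes, such as Trac, Trbc2, Cd247, Cd74 and Zfp683, were not analysed here. Python 3.11.15, numpy 2.4.6, pandas 2.3.3, statsmodels 0.14.6 and matplotlib 3.10.9 were used, and the scripts were tested on simulated data.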

Additional observations from a re-analysis of the deposited data

How the results depend on the processing

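No paired analysis was possible because each group is 1 array. A pseudocount was not tried, since the values were deposited as log2. In colon against small intestinal IEL, the count of receptors called higher, 1 as reported, was 0 with the floor at the 75th percentile, with a 3-fold threshold and with lowess, and the Cd96 difference, −1.04 as reported, was 0.042 after quantile normalization over 4 arrays and 0.043 over the 3 IEL arrays. In recolonized against colon IEL the median of the 6 receptors, 0.07 as reported, was −0.0090 (quantile over 4 arrays), −0.034 (centring), −0.0067 (lowess), −0.67 (relative to the CD3 chains) and −0.013 (quantile over 3 arrays). In colon IEL against the array labelled LP the median, 1.14 as reported, was 1.86 with centring and −4.28 relative to the CD3 chains, where the counts became 0 higher and 4 lower and Pdcd1, Cd160 and Cd96 were at −3.69, −3.69 and −1.18. With the 99th percentile as background, 2 receptors were above it on the colon array and 0 on the array labelled LP. Scaling also moved the balance of calls over all genes: of genes called in colon against small intestinal IEL, 19.7% were higher as deposited and 39.8% to 55.5% under the other scalings. For recolonized against colon IEL the share was 66.3% as deposited, 46.7% to 52.4% under quantile, centring and lowess, and 3.52% relative to the CD3 chains. For colon IEL against the array labelled LP it was 23.2% as deposited, 44.1% to 60.7% under those 3 and 0% relative to the CD3 chains. Centring moved the median difference over all genes to 0.52, −0.07 and 0.82 in the 3 pairs. Under all alternatives, 77 other counts and medians stayed within 1.5 times or within the SD of the ribosomal protein genes of their reported value, as did 86 values of single receptors, and 23 more values of single receptors moved further without a called one changing sign.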

Other observations

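Neighbouring genes on the chromosome did not all follow the receptors. Cd4, which encodes the CD4 co-receptor, flanks Lag3 on chromosome 6 in the RefSeq table, and its order over the IEL arrays was the opposite: Cd4 was at 5.91 in small intestinal, 8.09 in colon and 7.70 in recolonized IEL, where Lag3 was at 5.07, 2.55 and 3.07. Both were lowest on the array labelled LP, with Cd4 at 1.89 and not above background. Ptms, the gene on the other side of Lag3, was at 3.35, 3.38, 3.57 and 3.67 over the small intestinal, colon, recolonized and LP-labelled arrays. Tigit and Cd96 lie on the same chromosome, 16, and the genes that flank Tigit differed little: Zbtb20, a transcriptional repressor, lay between 4.05 and 4.12 on the 4 arrays. Rnf115, a ubiquitin ligase gene beside Cd160, was at 6.58 in small intestinal IEL and 5.11 in colon IEL, where Cd160 was at 4.55 and 4.33. The other flanking genes are given at their small intestinal and colon IEL levels. Beside Pdcd1 lay Neu4 (2.26 and 2.24) and Fam174a (3.55 and 3.36), and beside Tigit Drd3 (2.03 and 2.41). Beside Havcr2 lay Med7 (2.38 and 2.31) and Gm12169 (1.42 and 1.63), and beside Cd96 Plcxd2 (2.95 and 2.74). Pdzk1 beside Cd160 and Gm4737 beside Cd96 had no value. Flanking genes were chosen by position and not by their values.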
